A study of Mus musculus with 12 samples.

Results

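The solute carrier genes of cultured mouse aortic endothelial cells were taken by name: every gene with a probe set of exactly 1 symbol whose symbol starts with Slc, a family number, a letter and a member number. This gave 190 of the 11015 genes measured, in 47 families and on 315 probe sets. Of the 190, 186 are named as transporters and 4 are not (Slc4a1ap, Slc7a6os, Slc9a3r1 and Slc9a3r2, which encode neighbouring, opposite-strand or scaffold proteins). Solute carriers are membrane proteins that move sugars, amino acids, nucleosides, ions, metals and vitamins by facilitated diffusion or by coupling to a gradient. In endothelium they supply the cell itself and carry nutrients across the vessel wall, and Slc2a1 (GLUT1) and Slc7a5 (LAT1) are the known examples at the barrier in brain. Ets1 and Ets2 are related transcription factors that bind a GGAA core and act in endothelial development and vessel growth.

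The study asked what loss of Ets1 and Ets2 does to gene expression in these cells, isolated from the aorta of mice aged 4 weeks and grown in serum, heparin and endothelial growth supplement. DKO is the label for Ets1-/-; Ets2 fl/fl cells given a lentivirus for eGFP and Cre. Ets1KO cells were Ets1-/-; Ets2 fl/fl and received an eGFP lentivirus without Cre, Ets2KO cells were Ets1+/+; Ets2 fl/fl with the eGFP and Cre virus, and WT cells were Ets1+/+; Ets2+/+ with the eGFP virus. All groups thus carry a lentivirus, and loss of Ets2 always comes with Cre. Each group has 3 Affymetrix array columns of log2 expression values, but in 20521 of 20523 probe sets DKO column 3 equals the average of columns 1 and 2 (tolerance 1e-05). That column was left out, so 11 arrays enter the tests, with 2 for DKO. Their number limits the precision, and since only the titles call the replicates biological, p-values may measure technical spread.

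The arrays were compared before the members were read. Medians over the tested genes were 8.73 and 8.69 in the arrays labelled DKO, whereas the 9 other arrays had 9.37 to 9.50. Each value below is therefore a log2 value minus its array's median, called a relative level, and differences are also given as deposited. Ets1 itself averaged 1.44 ± 0.22 in the arrays labelled DKO (SD, n = 2), against -0.73 ± 0.42 in Ets1KO, 0.23 ± 0.18 in Ets2KO and 0.62 ± 0.24 in WT (n = 3 each). The arrays labelled DKO therefore go against their label for Ets1, and every direction below is that of the arrays so labelled. Ets2 averaged 1.61 ± 0.95 in the arrays labelled DKO, 0.28 ± 0.37 in Ets2KO, 0.92 ± 0.12 in Ets1KO and 0.71 ± 0.44 in WT. No test is given for these Ets1 and Ets2 levels. As deposited, both lie less far above WT in the arrays labelled DKO, since those arrays have lower medians. Endothelial markers were measured for 4 of 14 listed genes (Kdr, Flt1, Eng and Egfl7), and their mean lay below the array median in all 11 arrays (-1.83 to -0.63), while the mean of 7 of 7 fibroblast markers lay above it (0.17 to 1.93). The endothelial list was split: Kdr and Egfl7 lay below the array median in all 11 arrays. Eng lay above it in WT replicates 1 and 2 (1.17 and 0.38) and in the 3 Ets2KO arrays (0.50 to 1.43). Flt1 lay above it only in DKO replicate 2 (0.79). The fibroblast list was split too: Pdgfra, Col1a2 and Col3a1 lay above the array median in all 11 arrays. Lum lay below it in all 11 (-4.53 to -2.46). Dcn lay below it in all arrays but DKO replicate 1, and Dpt in all but the Ets2KO arrays. The fibroblast mean was 1.28 to 1.93 in the arrays labelled DKO, 0.17 to 0.996 in Ets1KO, 0.54 to 1.54 in Ets2KO and 0.76 to 1.24 in WT, and its part in the results was not tested. Pecam1 and Cdh5 were not analysed here. By Xist and Eif2s3y, WT replicate 1 and the 3 Ets2KO arrays were male-like and the other arrays female-like. WT replicate 3 correlated best with an Ets1KO array (r = 0.924), and the 10 other arrays with one of their own group.

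Across the whole set, most calls lay in comparisons with the arrays labelled DKO. A gene was called at a limma adjusted p (Benjamini-Hochberg over 11015 genes) below 0.05. In the arrays labelled DKO against WT, 31 members were higher and 32 lower, 33.2% of the members where 28.3% of all genes were called (16.4% higher and 12% lower). Against Ets1KO, which by the labels differs from DKO by the Cre virus, 37 were higher and 26 lower, where 28.7% of all genes were called (17.4% higher and 11.3% lower). Against Ets2KO, 31 were higher and 33 lower, where 30.3% of all genes were called (17.1% higher and 13.2% lower). The members' shares lie near those of all genes, so the number called is no result about solute carriers. These 3 comparisons share the same 2 arrays. Leaving out 1 array moved the count by over 1.5 times in 4 cases: to 40 against WT without WT replicate 2 and 36 without DKO replicate 2, and to 38 against Ets1KO without Ets1KO replicate 2 and 36 without DKO replicate 1. The arrays labelled DKO are female-like and the Ets2KO arrays male-like, and with sex class as a covariate 5 of the 64 calls against Ets2KO were made, those of Slc9a8, Slc25a10, Slc35f6, Slc25a46 and Slc38a9. WT is the sole group with both classes, so the sex term rests on WT replicate 1 against the other WT arrays. That fit therefore cannot separate sex from the Ets2KO label.

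The direction of these calls depends on the scaling. As deposited, 4 members were higher and 89 lower in the arrays labelled DKO than in WT, 6 higher and 86 lower than in Ets1KO, and 5 higher and 94 lower than in Ets2KO. The median of all genes differed between the arrays labelled DKO and WT by -0.61 as deposited and by 0.11 on relative levels, 0.09 after quantile normalization and 0.01 after subtracting the median of the probe sets from the 75th percentile of mean level up. With that last scaling the split was 21 higher and 37 lower against WT, 27 and 31 against Ets1KO, and 22 and 38 against Ets2KO. Subtracting the median of all probe sets, a scaling chosen after seeing the data, moved the median of all genes to 0.18. A call below is marked as under all 5 scalings, or as one on relative levels where another scaling does not make it. Calls in the same direction under all 5 were 4 higher and 25 lower against WT (all genes: 2.32% and 10.2%), 6 and 25 against Ets1KO (1.72% and 9.67%), and 5 and 29 against Ets2KO (3% and 11.8%).

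**Figure D1:**
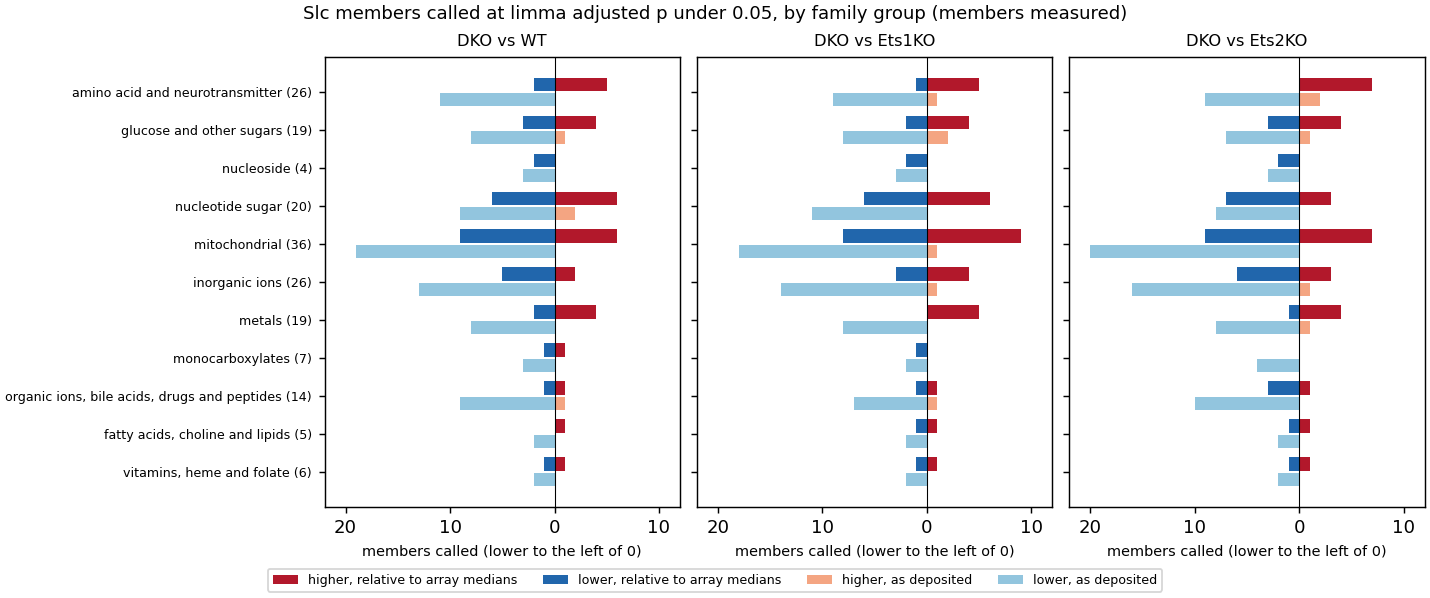
Members called at limma adjusted p under 0.05 in the arrays labelled DKO against WT, Ets1KO and Ets2KO, by family group, with the number measured in parentheses. Bars to the right (red) count members higher and bars to the left (blue) members lower in the arrays labelled DKO, in dark shades for relative levels and in light shades as deposited. Groups with under 4 members are left out. As deposited nearly all bars point left, whereas relative levels give bars on both sides in most family groups.

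The nucleoside carriers held the largest fall of any member in the arrays labelled DKO. Slc29a1 (ENT1), which takes up adenosine and other nucleosides at the plasma membrane, stood at -1.35 and -0.21 in the arrays labelled DKO, against 3.27, 2.58 and 3.06 in Ets1KO, 3.26, 3.41 and 2.07 in Ets2KO and 2.89, 2.57 and 2.35 in WT. Both arrays labelled DKO lie below the array median and the 9 others lie at least 2 units above it, with no overlap. Slc29a1 fell by 3.38 on the log2 scale against WT (SE 0.45, adjusted p = 0.00143), and the difference was -3.75 against Ets1KO and -3.70 against Ets2KO. As deposited the difference from WT was -4.10. The gene has 1 probe set, and it was called in all 3 comparisons whichever array was left out. It was not called in either single knockout, with differences of 0.37 in Ets1KO and 0.31 in Ets2KO against WT (adjusted p = 0.819 and 0.714).

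Slc29a3 (ENT3), the lysosomal member of the same family, stood at -0.83 and -0.93 in the arrays labelled DKO, -0.08, 0.04 and -0.12 in Ets1KO, -0.06, -0.12 and 0.46 in Ets2KO and 0.01, 0.09 and -0.41 in WT. It was lower in the arrays labelled DKO in all 3 comparisons and under all 5 scalings (-0.77, SE 0.21, adjusted p = 0.0247 against WT, limma). The other 2 measured nucleoside carriers were not called on relative levels.

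Among the 19 members of the sugar families, 4 were higher and 3 lower in the arrays labelled DKO than in WT on relative levels, and 1 and 8 as deposited. Under all 5 scalings 1 was higher and 3 lower. The rise was Slc2a1 (GLUT1), the basal glucose transporter and a known target of the hypoxia factor HIF-1. It stood at 3.67 and 3.80 in the arrays labelled DKO, 0.93, 1.89 and 1.62 in Ets1KO, 0.75, 1.04 and 1.0 in Ets2KO and 1.87, 1.68 and 2.49 in WT. Its highest values are those of the 2 arrays labelled DKO, which lie close together, and its Ets2KO values all lie under the WT values. Slc2a1 was 1.72 higher than in WT (SE 0.31, adjusted p = 0.00433), 2.26 higher than in Ets1KO (adjusted p = 0.0014) and 2.80 higher than in Ets2KO (adjusted p = 0.000475). The 3 probe sets ran from 1.07 to 1.95 against WT, and as deposited the differences were 1.0, 1.5 and 2.10. Ets2KO was -1.08 from WT at adjusted p = 0.101, which misses the threshold.

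The Slc2a1 promoter is shown because the list of hypoxia-induced genes moved with it (below). The window runs 250 bases before to 50 after the RefSeq transcription start at chr4:119108495-119108794 of GRCm38.p6, plus strand, with the letters ACGTG of the hypoxia response core in capitals, searched on both strands.
Slc2a1: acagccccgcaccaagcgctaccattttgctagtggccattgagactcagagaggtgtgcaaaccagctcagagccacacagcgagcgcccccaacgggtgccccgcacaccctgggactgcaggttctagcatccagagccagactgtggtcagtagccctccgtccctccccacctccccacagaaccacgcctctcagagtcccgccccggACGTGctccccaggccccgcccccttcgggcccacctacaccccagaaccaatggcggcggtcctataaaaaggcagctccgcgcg
It holds 1 ACGTG and no CCGGAAG. A match to these letters is not a binding site shown by these data.

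Slc2a13, a proton-coupled myo-inositol transporter, stood at -1.02 and -2.19 in the arrays labelled DKO, -3.69, -4.46 and -4.89 in Ets1KO, -1.95, -1.40 and -1.21 in Ets2KO and -2.58, -4.18 and -4.65 in WT. It was higher in the arrays labelled DKO than in Ets1KO under all 5 scalings (2.75, SE 0.62, adjusted p = 0.0115), and higher than in WT on relative levels (2.20, SE 0.62, adjusted p = 0.0276) but not as deposited (adjusted p = 0.0722). WT replicate 1, the male-like WT array, lies closer to the male-like Ets2KO arrays than the other 2 WT arrays do. Slc2a3 (GLUT3) was 1.36 above WT at adjusted p = 0.0925 and was not called. By mean over all arrays, Slc2a13 lay at percentile 1.51 and Slc2a3 at 0.51 of all genes, so both are dim.

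Slc37a4, which brings glucose-6-phosphate into the endoplasmic reticulum, was higher than in Ets2KO on relative levels (1.01, SE 0.22, adjusted p = 0.00903) and not as deposited. The falls in the sugar families were Slc45a4, Slc5a3 and Slc5a6. Slc45a4 stood at -0.25 and -1.06 in the arrays labelled DKO, 0.59, 1.16 and 0.62 in Ets1KO, 0.46, 0.17 and 0.31 in Ets2KO and 0.58, 1.06 and 1.29 in WT, a fall of 1.63 against WT (SE 0.30, adjusted p = 0.00451) that all 3 of its probe sets share in sign. Slc5a3, the sodium-coupled myo-inositol transporter that answers osmotic stress, stood at 2.90 and 2.46 in the arrays labelled DKO and 3.88, 3.54 and 3.42 in WT (-0.94, SE 0.26, adjusted p = 0.0263). Slc5a6, which carries biotin and pantothenate rather than a sugar, was lower than in WT, Ets1KO and Ets2KO under all 5 scalings, with differences of -1.04, -0.93 and -1.11.

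**Figure D2:**
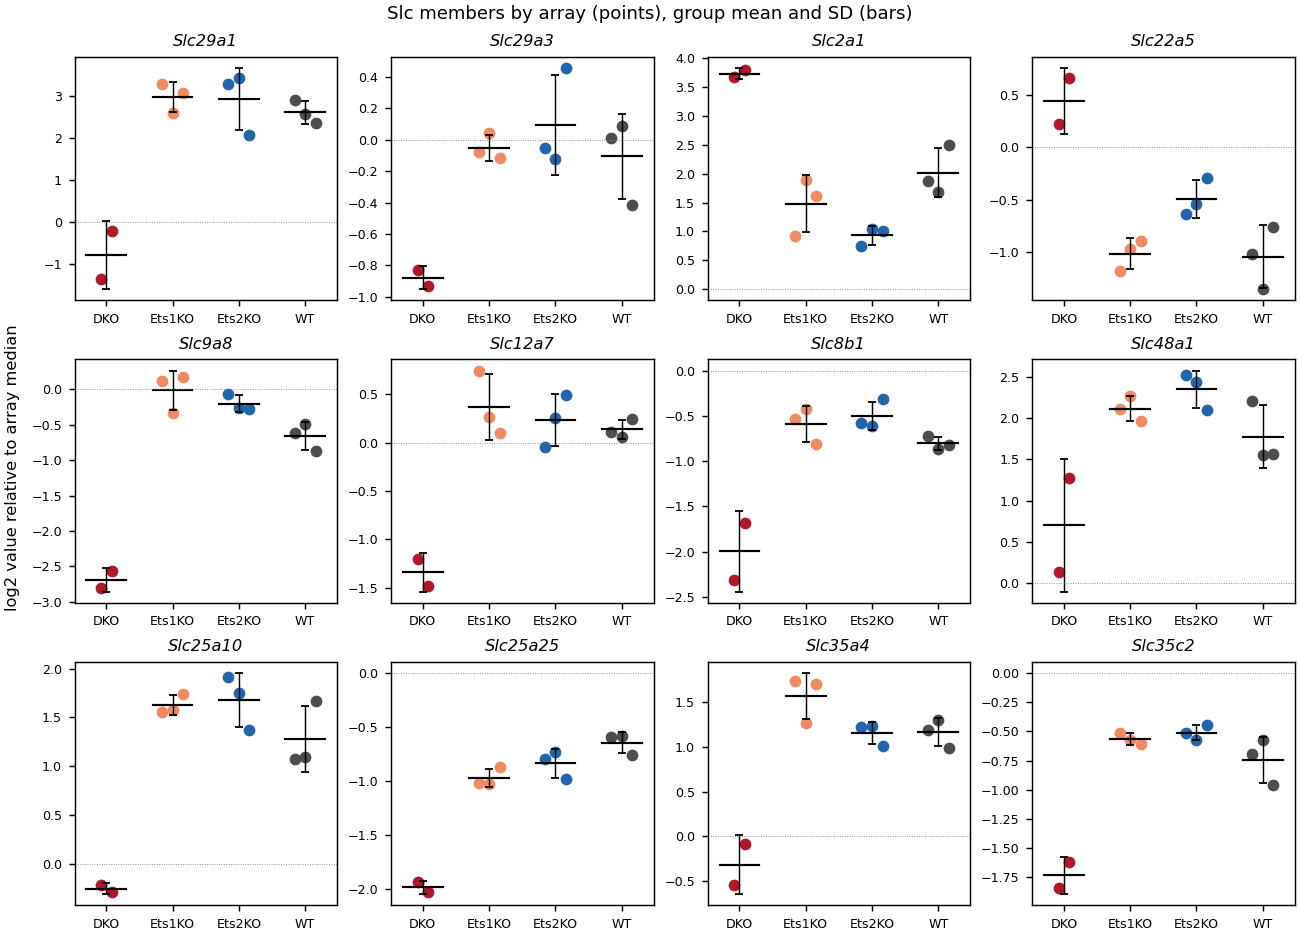
Relative levels (log2 value minus array median) of 12 members in each of 11 arrays, with the mean (wide bar) and SD (thin bar) of each group. Slc2a1 and Slc22a5 are higher in the 2 arrays labelled DKO than in every other array, and the 10 other members drawn are lower there than in every other array.

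Amino acid carriers made up 26 members, of which 5 were higher and 2 lower in the arrays labelled DKO than in WT on relative levels, and 11 were lower as deposited. No amino acid carrier kept a call against WT under all 5 scalings by limma. Slc38a1 (SNAT1), a glutamine transporter, stood at 2.05 and 1.90 in the arrays labelled DKO, -0.27, 1.24 and 1.47 in Ets1KO, 0.50, -0.62 and -0.02 in Ets2KO and 0.34, 0.18 and -0.81 in WT. It was higher than in WT on relative levels (2.07, SE 0.55, adjusted p = 0.0225) and not as deposited (adjusted p = 0.0699). Slc38a9, the lysosomal carrier that signals arginine to mTORC1, stood at -1.14 and -1.01 in the arrays labelled DKO and between -2.72 and -2.02 in the 9 others. It was higher than in Ets2KO under all 5 scalings (1.35, SE 0.17, adjusted p = 0.000756), with 5 probe sets that ran from 0.01 to 1.35. Against WT and Ets1KO its probe sets disagreed in sign.

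Slc7a2 (CAT2), which carries arginine and other cationic amino acids, showed the widest spread between groups of the family. It stood at 1.65 and 2.61 in the arrays labelled DKO, 0.44, 0.43 and 0.08 in Ets1KO, -3.03, -3.10 and -0.52 in Ets2KO and 0.11, 1.17 and -2.04 in WT. The WT and Ets2KO arrays overlap, and the arrays labelled DKO lie above all others. Slc7a2 was 4.35 higher in the arrays labelled DKO than in Ets2KO (SE 0.97, adjusted p = 0.0103, all 3 probe sets higher) under all 5 scalings, and 2.39 from WT without a call (adjusted p = 0.0972).

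Slc1a5 (ASCT2), an exchanger for glutamine, stood at -0.36 and -0.84 in the arrays labelled DKO and 0.64, 0.15 and 1.25 in WT. It was lower on relative levels (-1.28, SE 0.41, adjusted p = 0.0454) but lost its call in 8 of 11 fits that left out an array. Slc1a4 (ASCT1) was lower than in Ets1KO under all 5 scalings (-0.80, SE 0.20, adjusted p = 0.0195), though its 3 probe sets ran from -0.80 to 1.60 and their mean was 0.40. The large neutral amino acid transporter pair behaved unevenly: Slc7a5 (LAT1) was -1.14 from WT (adjusted p = 0.186), and Slc3a2, its heavy chain, was 0.55 (adjusted p = 0.181). Against Ets2KO Slc3a2 was higher on relative levels (1.04, SE 0.29, adjusted p = 0.0246) and not as deposited. Slc38a2 (SNAT2), which is induced by amino acid shortage, was 0.70 from WT (adjusted p = 0.0706) and, on relative levels, 0.90 higher than in Ets2KO (adjusted p = 0.0284). Slc7a1 (CAT1) was not called in any comparison, with 0.51 against WT. Slc38a10 had a probe set at -2.59 and another at 1.21 against WT, so it has no settled direction.

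The 20 members of family 35 were grouped by family number as nucleotide sugar transporters, though not all of them carry such sugars. Those that do feed the Golgi and endoplasmic reticulum with the activated sugars used for glycosylation. In the arrays labelled DKO, 6 of the 20 were higher and 6 lower than in WT on relative levels, 2 and 9 as deposited, and 2 and 6 under all 5 scalings. The falls were Slc35a4, Slc35b2, Slc35b4, Slc35c2, Slc35e1 and Slc35f6. Slc35a4 stood at -0.55 and -0.08 in the arrays labelled DKO, 1.74, 1.27 and 1.70 in Ets1KO, 1.22, 1.24 and 1.02 in Ets2KO and 1.19, 1.31 and 0.99 in WT (-1.48, SE 0.20, adjusted p = 0.00153 against WT, both probe sets lower). Slc35f6 stood at -0.92 and -1.31 in the arrays labelled DKO, -0.14, -0.06 and 0.03 in Ets1KO, 0.34, 0.02 and 0.04 in Ets2KO and -0.20, -0.03 and 0.17 in WT (-1.09, SE 0.18, adjusted p = 0.00294 against WT). In both genes every array labelled DKO lies under every other array.

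Slc35b2 carries the sulphate donor PAPS, and Slc35b4 carries UDP-xylose. Slc35b2 was lower than in WT (difference -0.77, adjusted p = 0.0177). Slc35b4 was also lower on its brightest probe set (-1.57, adjusted p = 0.000312), while another of its 3 read 0.29. Slc35e1 was lower on its brightest probe set (-1.12, adjusted p = 0.00724) and read 0.60 on the other, so a direction for Slc35b4 and Slc35e1 rests on the probe set chosen.

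Slc35c2, which promotes fucosylation of Notch in the secretory pathway, stood at -1.84 and -1.62 in the arrays labelled DKO, -0.51, -0.58 and -0.61 in Ets1KO, -0.52, -0.57 and -0.44 in Ets2KO and -0.70, -0.57 and -0.96 in WT. It was lower than in WT (-0.99, SE 0.15, adjusted p = 0.0021), Ets1KO (-1.17) and Ets2KO (-1.22), with both probe sets in the same direction each time. Its promoter is shown because it holds 2 copies of the ETS core CCGGAAG, read here as CTTCCGG on the other strand and set in capitals. The window lies at chr2:165287738-165288037 of GRCm38.p6, minus strand, and is written 5′ to 3′ on that strand.
Slc35c2: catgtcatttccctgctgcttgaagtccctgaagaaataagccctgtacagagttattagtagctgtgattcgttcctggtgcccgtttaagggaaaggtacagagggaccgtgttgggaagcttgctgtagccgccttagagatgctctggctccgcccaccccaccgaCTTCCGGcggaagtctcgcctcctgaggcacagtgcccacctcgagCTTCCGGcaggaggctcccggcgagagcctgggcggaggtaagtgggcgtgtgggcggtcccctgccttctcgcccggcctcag
Both copies lie upstream of the start. CCGGAAG stood in 20.4% of the members with a window and in 20.5% of the tested genes with a window (below).

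Slc35a1, the CMP-sialic acid transporter, stood at 1.64 and 1.40 in the arrays labelled DKO, 0.40, 0.53 and 0.39 in Ets1KO, 0.77, 0.91 and 0.72 in Ets2KO and 0.46, 0.23 and 0.34 in WT. It was higher than in WT under all 5 scalings (1.18, SE 0.14, adjusted p = 0.00077), although its second probe set read only 0.01. Slc35a2, the X-linked UDP-galactose transporter, was 1.72 higher than in WT on its brightest probe set (adjusted p = 0.00417), with its 5 probe sets from -0.43 to 1.72. Slc35a3, the UDP-N-acetylglucosamine transporter, read 1.23 on its brightest and -2.04 on another of its 4 probe sets against Ets2KO, and has no settled direction. Slc35f5 was higher than in WT on relative levels (1.37, SE 0.43, adjusted p = 0.0403) and not as deposited.

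Mitochondrial carriers of family 25 were the largest group, with 36 members. Of these, 6 were higher and 9 lower in the arrays labelled DKO than in WT on relative levels, 19 were lower as deposited, and 7 were lower under all 5 scalings. Against Ets1KO the last count was 7 lower with 1 higher, and against Ets2KO 7 lower. The 7 against WT were Slc25a1, Slc25a10, Slc25a13, Slc25a22, Slc25a25, Slc25a38 and Slc25a47. Slc25a1 exports citrate for fatty acid synthesis, and Slc25a10 exchanges dicarboxylates for phosphate. Slc25a13 exchanges aspartate for glutamate, Slc25a22 carries glutamate and Slc25a38 is needed for heme synthesis.

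Slc25a10 stood at -0.21 and -0.29 in the arrays labelled DKO, 1.56, 1.58 and 1.74 in Ets1KO, 1.92, 1.75 and 1.37 in Ets2KO and 1.07, 1.09 and 1.67 in WT, and no other array reaches down to the arrays labelled DKO. It was lower than in WT (-1.53, SE 0.22, adjusted p = 0.00178), with differences of -1.88 against Ets1KO and -1.93 against Ets2KO, and its second probe set read -2.37 against WT. Slc25a1 stood at -0.62 and -0.08 in the arrays labelled DKO, 1.07, 1.94 and 1.26 in Ets1KO, 1.03, 0.79 and 2.01 in Ets2KO and 1.10, 1.47 and 0.98 in WT (-1.54, SE 0.39, adjusted p = 0.0178 against WT). Slc25a25, a calcium-regulated ATP-Mg/phosphate carrier, stood at -1.94 and -2.03 in the arrays labelled DKO, -1.02, -1.03 and -0.88 in Ets1KO, -0.79, -0.73 and -0.99 in Ets2KO and -0.60, -0.59 and -0.76 in WT. Its arrays lie close together within each group, and the fall against WT had the smallest SE of the 3 (-1.34, SE 0.13, adjusted p = 0.000372), while its second probe set read -0.10. The difference from WT was -1.06 for Slc25a47 (adjusted p = 0.000759), -0.97 for Slc25a22 (adjusted p = 0.0187) and -0.97 for Slc25a13 (adjusted p = 0.0187).

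Slc25a34 was the member of the family with the largest rise. It stood at -0.07 and -1.49 in the arrays labelled DKO, -2.68, -2.36 and -2.74 in Ets1KO, -2.21, -2.61 and -2.62 in Ets2KO and -2.37, -2.21 and -1.97 in WT. The 2 arrays labelled DKO lie apart from each other, yet both lie above all others. Slc25a34 was higher than in Ets1KO under all 5 scalings (1.81, SE 0.36, adjusted p = 0.00662), and on relative levels than in WT (1.40, SE 0.36, adjusted p = 0.0188). Slc25a36, which carries pyrimidine nucleotides, was higher than in Ets1KO on relative levels (1.45, SE 0.26, adjusted p = 0.00452) and not as deposited. Slc25a53 was higher than in Ets1KO in the same way (1.17, adjusted p = 0.0328), and Slc25a30 was lower under all 5 scalings with all 4 probe sets lower (-1.28, SE 0.30, adjusted p = 0.014). Slc25a5 (ANT2), the X-linked ADP/ATP exchanger measured by 8 probe sets, was lower than in WT on relative levels (-0.71, SE 0.23, adjusted p = 0.0451) with all 8 below 0, -1.16 to -0.38. It lost that call in 8 of 11 fits that left out an array.

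Carriers of mitochondrial cofactors and substrates gave further calls on relative levels. Slc25a40, needed for mitochondrial glutathione import, stood at 0.22 and 0.60 in the arrays labelled DKO, -0.68, -0.94 and -0.54 in Ets1KO, -0.33, -0.71 and -1.0 in Ets2KO and -0.78, -0.73 and -0.76 in WT. It was higher than in WT (1.17, SE 0.22, adjusted p = 0.00481) and called in all 3 comparisons, in none of them as deposited. Slc25a26, which imports S-adenosylmethionine, was likewise higher in all 3 on relative levels (0.54, 0.71 and 0.86) and in none as deposited. Slc25a20, the carnitine-acylcarnitine exchanger of fatty acid oxidation, was higher than in Ets1KO (0.91, SE 0.22, adjusted p = 0.0153) in the same way. Slc25a11, the oxoglutarate carrier, was lower than in Ets1KO (-0.72, adjusted p = 0.031) and Ets2KO (-0.77, adjusted p = 0.0234) under all 5 scalings, and Slc25a15, the ornithine carrier, was lower than in Ets1KO under all 5 (-0.62, adjusted p = 0.0224).

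Of 26 members in the inorganic ion families, 2 were higher and 5 lower in the arrays labelled DKO than in WT on relative levels, 13 were lower as deposited, and 4 were lower under all 5 scalings (Slc4a11, Slc8b1, Slc9a8 and Slc12a7). Slc9a8 (NHE8), a sodium/proton exchanger of endomembranes, stood at -2.81 and -2.57 in the arrays labelled DKO, 0.11, -0.34 and 0.18 in Ets1KO, -0.07, -0.26 and -0.28 in Ets2KO and -0.62, -0.48 and -0.87 in WT. It was lower than in WT (-2.03, SE 0.19, adjusted p = 0.000327), and the difference was -2.67 against Ets1KO (adjusted p = 0.000117) and -2.49 against Ets2KO (adjusted p = 0.000115). Its second probe set read 0.25, -0.14 and 0.31 in the same comparisons, so against WT and Ets2KO that probe set was not lower. The Slc9a8 promoter holds 1 CCGGAAG, shown in capitals, at chr2:167421460-167421759 of GRCm38.p6 on the plus strand.
Slc9a8: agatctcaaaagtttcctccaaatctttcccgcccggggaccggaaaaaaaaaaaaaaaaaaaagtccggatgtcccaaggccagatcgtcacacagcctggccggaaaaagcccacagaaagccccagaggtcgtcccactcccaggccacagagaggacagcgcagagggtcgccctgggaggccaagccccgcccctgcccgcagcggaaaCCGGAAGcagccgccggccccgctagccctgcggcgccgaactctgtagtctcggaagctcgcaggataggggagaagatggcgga
It is shown as the promoter of the second largest fall against Ets1KO.

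Slc12a7 (KCC4), a potassium-chloride exporter, stood at -1.20 and -1.48 in the arrays labelled DKO, 0.74, 0.26 and 0.10 in Ets1KO, -0.05, 0.26 and 0.49 in Ets2KO and 0.11, 0.06 and 0.24 in WT. Both probe sets were lower against WT (-1.48 and -1.43; SE 0.22, adjusted p = 0.00226 for the brighter). Slc12a2 (NKCC1), which imports chloride with sodium and potassium, stood at 2.95 and 2.84 in the arrays labelled DKO, 2.96, 1.72 and 1.48 in Ets1KO, 0.62, 0.98 and 0.43 in Ets2KO and 2.17, 2.08 and 1.13 in WT. It was higher in the arrays labelled DKO than in Ets2KO under all 5 scalings (2.22, SE 0.45, adjusted p = 0.00694, 3 probe sets), while Ets1KO replicate 1 reached the same level as the arrays labelled DKO. Slc8b1 (NCLX), the mitochondrial sodium/calcium exchanger, stood at -2.31 and -1.68 in the arrays labelled DKO and between -0.86 and -0.32 in the 9 others (-1.19, SE 0.21, adjusted p = 0.00372 against WT). Slc8a3 (NCX3), a plasma membrane sodium/calcium exchanger, was lower than in Ets2KO under all 5 scalings (-2.08, SE 0.53, adjusted p = 0.0178), where it was highest.

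Slc20a2 (PiT2), a phosphate importer, was lower than in Ets2KO under all 5 scalings (-1.60, SE 0.50, adjusted p = 0.039) but kept its call in only 3 of 11 fits that left out an array. Slc41a1, which exports magnesium, stood at 1.09 and 2.71 in the arrays labelled DKO, 0.16, -0.18 and 0.05 in Ets1KO, 0.79, 0.54 and 0.52 in Ets2KO and 0.36, 0.39 and 0.86 in WT, and was higher than in Ets1KO under all 5 scalings (1.89, SE 0.39, adjusted p = 0.00833). Its relative Slc41a2 was higher than in Ets1KO on relative levels (1.62, SE 0.46, adjusted p = 0.0276) and not as deposited. Slc9a3r2 (NHERF2), a scaffold of endothelium and no transporter, was not called, with 0.46 against WT.

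In the metal families, 4 of 19 members were higher and 2 lower in the arrays labelled DKO than in WT on relative levels, 8 were lower as deposited, and 1 was lower under all 5 scalings. That fall was Slc11a2 (DMT1), which imports ferrous iron. It stood at -1.71 and -1.20 in the arrays labelled DKO, -0.85, -0.62 and -0.58 in Ets1KO, -1.26, -1.34 and -1.11 in Ets2KO and 0.31, 0.37 and -0.47 in WT. WT replicate 3 lies apart from the other 2 WT arrays, and the arrays labelled DKO overlap with Ets2KO. It was lower than in WT (-1.53, SE 0.26, adjusted p = 0.00379), but its 3 probe sets ran from -1.53 to 0.27. The zinc exporters Slc30a6, Slc30a7 and Slc30a9 and the zinc importer Slc39a6 were the rises on relative levels, none of them called as deposited, and a second probe set of Slc39a6 read -2.09. The mean of the Slc39a6 probe sets was -0.80 against WT (limma adjusted p = 0.0114), so Slc39a6 has no settled direction. Slc39a13 (ZIP13), a zinc transporter of the secretory pathway, was lower than in Ets2KO under all 5 scalings (-0.96, SE 0.22, adjusted p = 0.0113). Slc30a7, a zinc transporter of the Golgi, was 1.27 higher than in WT (adjusted p = 0.00734) on 1 of 2 probe sets, the other reading 0.01. Slc30a4 (ZnT4) was higher than in Ets2KO under all 5 scalings, at 3.38 and 3.41 in the arrays labelled DKO and 2.39, 1.82 and 1.62 in Ets2KO (1.45, SE 0.24, adjusted p = 0.00293).

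The small families gave few calls. Among 14 carriers of organic ions, bile acids, drugs and peptides, 1 was higher and 1 lower than in WT on relative levels, both under all 5 scalings, and 1 and 9 as deposited. The rise was Slc22a5 (OCTN2), the carnitine importer, at 0.22 and 0.67 in the arrays labelled DKO, -1.19, -0.98 and -0.89 in Ets1KO, -0.64, -0.55 and -0.29 in Ets2KO and -1.02, -1.36 and -0.76 in WT. It was 1.49 higher than in WT (SE 0.22, adjusted p = 0.00181) and 1.47 higher than in Ets1KO (adjusted p = 0.00203), and its 2 arrays labelled DKO stand alone above the array median. The fall was Slc13a5, a citrate importer, with a difference of -0.62 (adjusted p = 0.00498). Slc22a4 (OCTN1), which carries ergothioneine, was lower than in Ets2KO under all 5 scalings (-2.96, SE 0.58, adjusted p = 0.00615).

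Among the 7 measured members of the monocarboxylate family (Slc16a3 was not analysed here), Slc16a1 (MCT1), a lactate transporter, was not called (-0.30 against WT, adjusted p = 0.821). Slc16a4 was higher than in WT on relative levels (1.40, SE 0.41, adjusted p = 0.0318) and not as deposited. Slc16a8 (MCT3), a lactate transporter of the retinal pigment epithelium, was lower than in WT on relative levels (-0.48, SE 0.16, adjusted p = 0.0481) and lower than in Ets1KO under all 5 scalings (-0.51, SE 0.16, adjusted p = 0.0382). The call against Ets1KO held in 3 of 11 fits that left out an array. Of 5 carriers of fatty acids and choline, Slc27a1 (FATP1) was lower than in Ets1KO and Ets2KO under all 5 scalings (-1.18 and -1.65), at -1.81 and -0.97 in the arrays labelled DKO, 0.00, -0.08 and -0.55 in Ets1KO, 0.36, 0.05 and 0.35 in Ets2KO and -0.61, -1.5 and -0.64 in WT. The WT arrays lie nearest to the arrays labelled DKO here. The choline carrier Slc44a1 was higher than in Ets2KO on relative levels (1.14, SE 0.27, adjusted p = 0.013).

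Of 6 carriers of vitamins and heme, Slc48a1, which moves heme out of endosomes and lysosomes, stood at 0.14 and 1.27 in the arrays labelled DKO, 2.11, 2.27 and 1.97 in Ets1KO, 2.52, 2.44 and 2.09 in Ets2KO and 2.21, 1.55 and 1.56 in WT. It was lower in all 3 comparisons under all 5 scalings (-1.41, SE 0.33, adjusted p = 0.0135 against Ets1KO), and both probe sets were lower. Against WT (-1.07, SE 0.33, adjusted p = 0.039) the call held in 3 of 11 fits that left out an array. Slc23a2 (SVCT2), the ascorbate importer, stood at 0.86 and 2.28 in the arrays labelled DKO and between -0.09 and 0.64 in the 9 others. It was higher in all 3 comparisons on relative levels (1.35, SE 0.38, adjusted p = 0.0271 against WT), in none of them as deposited. Slc19a2, a thiamine importer, read 1.25 on 1 probe set and -3.91 on another against Ets1KO, and has no settled direction.

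**Figure D3:**
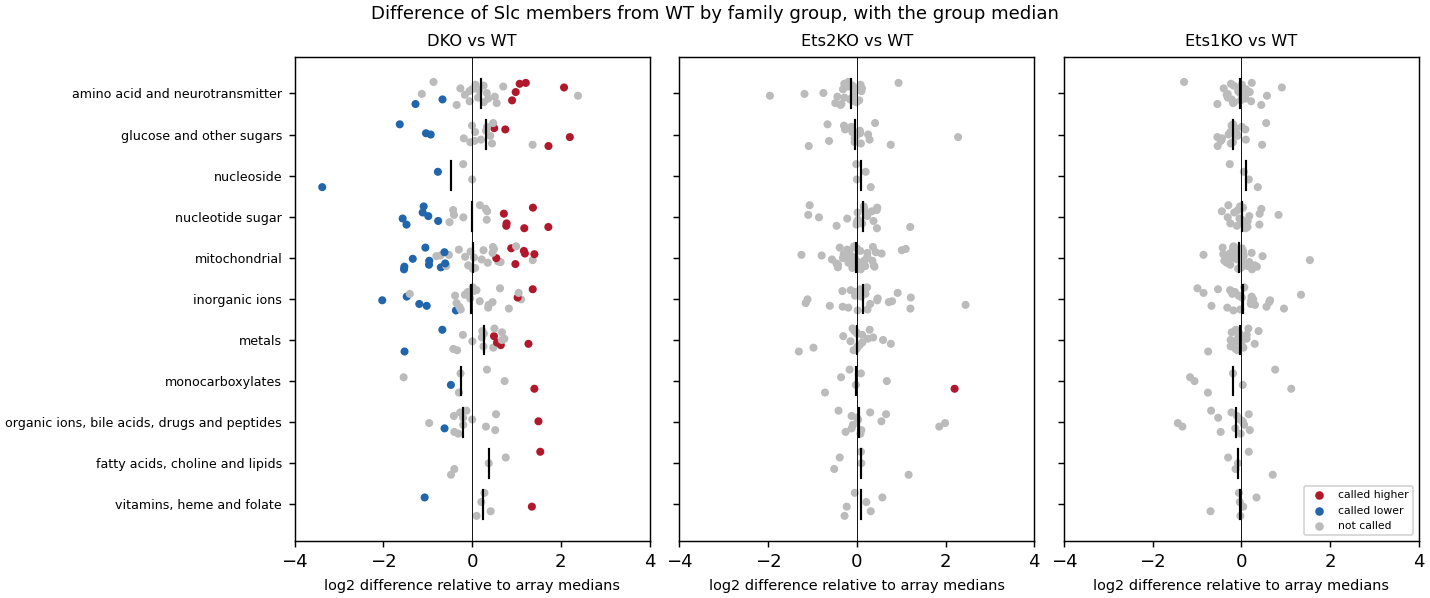
Log2 difference from WT of relative levels for each member of the family groups with 4 or more members, in the arrays labelled DKO, in Ets2KO and in Ets1KO, with the median of each group as a black bar. Red and blue points were called higher and lower at limma adjusted p under 0.05, and grey points were not called. Called points appear throughout the left panel, the middle panel holds 1, and the right panel holds none.

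In Ets2KO cells against WT 1 member was called of 190, 0.526% where 0.436% of all genes were called. This was Slc16a4 (MCT5), a member of the monocarboxylate carrier family, at -1.69, -1.04 and -1.11 in Ets2KO and -3.74, -3.65 and -3.06 in WT. The groups do not overlap, and Slc16a4 was higher in Ets2KO (2.21, SE 0.37, adjusted p = 0.0484). The call was not made under any of the 4 other scalings or with sex class as a covariate (adjusted p = 0.26), and it was made in 2 of 11 fits that left out an array. The other large positive differences were not called. Slc8a3 stood at 1.11, -0.15 and -0.66 in Ets2KO and -2.68, -2.41 and -1.96 in WT, a difference of 2.45 (adjusted p = 0.0587). Slc2a13 differed by 2.28 (adjusted p = 0.0932), Slc22a4 by 1.99 (adjusted p = 0.11) and Slc15a2 (PEPT2, a peptide importer) by 1.86 (adjusted p = 0.304). These members are dim: by mean over all arrays Slc16a4 lay at percentile 8.05 of all genes and Slc8a3 at 20.2. Slc2a13 lay at 1.51, Slc22a4 at 0.29 and Slc15a2 at 0.50.

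Sex class and other cell markers are set beside these Ets2KO values here, and they went with some of the members and against others. Slc15a2 stood at -0.63, -1.53 and -2.56 in the male-like Ets2KO arrays, against -0.95 in the male-like WT array and -4.45 and -4.89 in the female-like WT arrays. The same male-like WT array was the highest WT array for Slc22a4 and Slc2a13 and the lowest for Slc16a4 and Slc8a3. The mean of 4 of 6 measured adipocyte markers (Adipoq, Fabp4, Pparg and Lpl) was 0.74, 2.98 and 3.75 in Ets2KO. In WT it was -1.56, -2.37 and 2.49. In the arrays labelled DKO it was 0.19 and -2.66, below every Ets2KO array. WT replicate 3, the WT array with the highest adipocyte mean, was the highest WT array for Slc16a4 and Slc8a3. It was the lowest for Slc15a2 and Slc2a13. The mean of 4 of 6 pericyte markers (Pdgfrb, Rgs5, Cspg4 and Notch3) was 1.15, -0.01 and 1.97 in Ets2KO. In WT that mean was -1.0, 0.19 and -1.06. Of these only Rgs5 lay apart, at 3.62, 0.78 and 4.48 in Ets2KO against -1.92, -1.52 and -2.53 in WT. Pdgfrb, Cspg4 and Notch3 overlapped between the groups. The part of sex or of other cells in these results was not tested beyond the fit with sex class, whose sex term rests on the WT arrays alone. In bulk RNA, fewer cells of a type and less RNA per cell cannot be told apart.

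**Figure D4:**
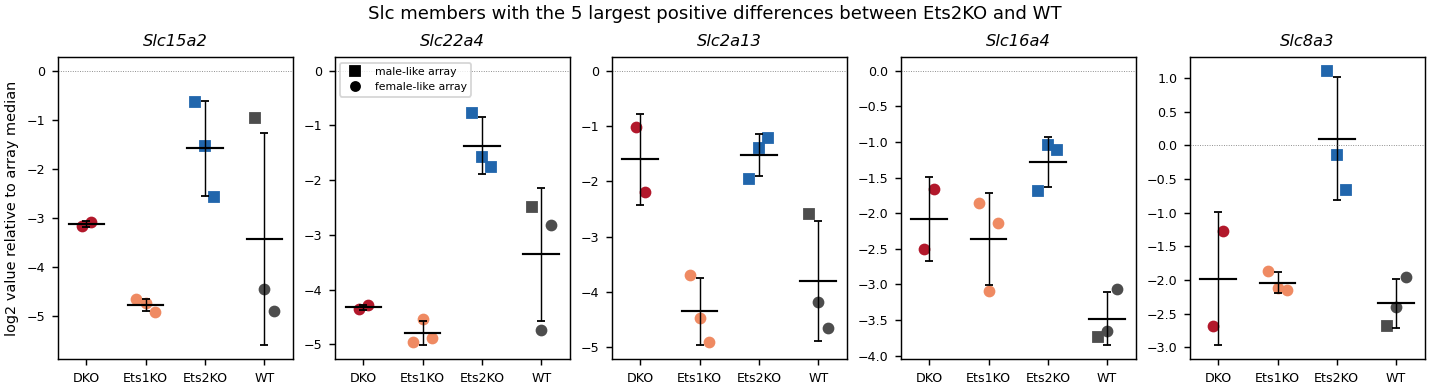
Relative levels of the 5 members with the largest positive differences between Ets2KO and WT, in each of 11 arrays, with group means and SD. Squares are male-like and circles female-like arrays by Xist and Eif2s3y. The male-like WT array lies with the Ets2KO arrays for Slc15a2 and toward them for Slc2a13, but at the bottom of WT for Slc16a4 and Slc8a3.

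The largest negative differences in Ets2KO were not called either. Slc7a2 differed by -1.96 (adjusted p = 0.264) with overlapping groups, and Slc11a2 by -1.31 (adjusted p = 0.0574) with all 3 probe sets lower. Slc25a33, a pyrimidine nucleotide carrier, differed by -1.25 (adjusted p = 0.202), Slc7a5 by -1.18 (adjusted p = 0.271) and Slc9a3r1 (NHERF1, a scaffold) by -1.15 (adjusted p = 0.116). Over all members the median difference was 0.01, and that of all genes -0.01.

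In Ets1KO cells against WT limma called none of the 190 members, and 0.00908% of all genes. At an unadjusted p under 0.05 there were 15 members, 7.89%, where 8.71% of all genes passed. The largest positive differences were those of Slc25a23 (1.54), Slc20a1 (1.34), Slc16a4 (1.12), Slc4a3 (0.96) and Slc38a1 (0.91). Slc25a23, a calcium-regulated ATP-Mg/phosphate carrier, stood at -2.02, -2.12 and -1.89 in Ets1KO and -4.60, -3.38 and -2.67 in WT. Slc20a1 (PiT1), a phosphate importer, stood at 3.43, 3.14 and 2.59 in Ets1KO and 1.46, 2.25 and 1.43 in WT, and Slc4a3, an anion exchanger, at 0.38, -0.57 and -0.30 in Ets1KO and -1.15, -0.84 and -1.37 in WT. In these 3 the groups do not overlap, and the adjusted p was 0.534, 0.651 and 0.52. The largest negative differences were those of Slc22a4 (-1.44), Slc15a2 (-1.33), Slc43a3 (-1.29), Slc16a10 (-1.16) and Slc16a9 (-1.06), all with overlapping groups. Ets1KO arrays are female-like, and the male-like WT array was the highest of WT for Slc22a4, Slc15a2 and Slc16a9. The adipocyte marker mean was -3.54, -3.18 and -3.34 in Ets1KO, below every WT array, and its part in these differences was not tested.

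The interaction was tested as the difference between the arrays labelled DKO and Ets1KO minus that between Ets2KO and WT. By the labels DKO and Ets1KO, both Ets1-/- and Ets2 fl/fl, differ by the Cre virus. Ets2KO and WT, both Ets1+/+, differ by the Cre virus and also by the Ets2 alleles (fl/fl against +/+). The contrast therefore does not set Cre against Cre alone. Ets1 itself, which in the arrays labelled DKO lay above its Ets1KO mean, goes against those labels. Ets2 was not below its WT mean there either, with a wide spread and without a test. The interaction is therefore given as a contrast of labelled arrays. For it 17 members were positive and 17 negative, 17.9% of the members where 14.5% of all genes were called (7.54% positive and 6.94% negative). As deposited the split was 2 and 67, and under all 5 scalings 2 and 15 (all genes: 1.49% and 6.22%). The Ets2KO arrays are all male-like, and with sex class as a covariate, a term that rests on the WT arrays alone, 14 of the 34 calls were made. With the replicate block 20 were made. The count was 22 without WT replicate 1, 21 without Ets1KO replicate 2 and 20 without Ets1KO replicate 3. The 2 positive contrasts under all 5 scalings were Slc2a1 (3.34, SE 0.41, adjusted p = 0.00200) and Slc38a9 (1.59, SE 0.22, adjusted p = 0.00319, probe sets from -0.23 to 1.59). For Slc2a1 the difference was 2.26 between the arrays labelled DKO and Ets1KO, and -1.08, not called, between Ets2KO and WT. The negative contrasts included Slc29a1 (-4.06, SE 0.61, adjusted p = 0.00449), Slc9a8 (-3.13), Slc27a1 (-2.35), Slc25a10 (-2.28), Slc48a1 (-1.99) and Slc35a4 (-1.88). The contrast of Slc9a8 rests on its brighter probe set. On its other probe set the arrays labelled DKO (-2.39 and -1.62) overlapped with Ets1KO (-1.95, -1.83 and -1.79), and Ets2KO overlapped with WT.

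Genes that work with these carriers were counted from lists written with earlier results of these data known, on relative levels unless stated. No list was tested as a set. Of all genes 16.4%, 17.4% and 17.1% were called higher in the arrays labelled DKO than in WT, Ets1KO and Ets2KO. Called lower were 12%, 11.3% and 13.2%. Under all 5 scalings 2.32%, 1.72% and 3% of all genes were higher and 10.2%, 9.67% and 11.8% lower. Of 16 genes for hypoxia-induced glycolysis 13 were measured, and in the arrays labelled DKO 8 were higher than in WT, 11 than in Ets1KO and 13 than in Ets2KO, with median differences of 0.80, 0.95 and 1.53 where the medians of all genes were 0.11, 0.17 and 0.14. Under all 5 scalings 3, 3 and 10 were higher. Hk2, the hexokinase that traps glucose, was 2.91 higher than in WT (adjusted p = 0.00261) and 5.51 higher than in Ets2KO, and in Ets2KO it was lower than in WT (-2.59, adjusted p = 0.0475). Bsg, the chaperone of lactate carriers, was higher in all 3 comparisons on relative levels (0.81, 0.86 and 0.77) and in none as deposited by limma.

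Of 28 ABC transporters, 3 were higher and 5 lower in the arrays labelled DKO than in WT, 2 and 5 of them under all 5 scalings. The share of this list called against WT lies near the 28.3% of all genes. Of 20 genes induced by amino acid shortage, 5 were higher (among them Trib3, 1.37, adjusted p = 0.0273) and 2 lower (Sesn2 and Gpt2), 3 and 1 of them under all 5 scalings. Of 9 measured metal handling genes limma called none against WT, with 3 at an unadjusted p under 0.05. Against Ets1KO 3 of the 9 were higher on relative levels (Mt1, Tfrc and Ireb2), 1 of them under all 5 scalings. Of the same 9 genes 4 were higher than in Ets2KO under all 5 scalings, Mt1, Mt2, Tfrc and Cp, with Tfrc, which imports transferrin-bound iron, 2.85 higher (adjusted p = 0.00121). Of 5 Slco organic anion carriers 3 were higher than in Ets1KO on relative levels and none as deposited by limma. Of 6 measured P-type ATPases 2 were higher and 1 lower than in WT, with 1 each way under all 5 scalings. Atp7a, a copper pump, was higher in all 3 comparisons (1.69 against WT, limma adjusted p = 0.00229). Atp1b3 was lower than in WT (-0.69, limma adjusted p = 0.0361).

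For genes with several probe sets, the share whose probe sets all had the same sign was counted. Of 78 such members this held in 40 against WT, 46 against Ets1KO and 47 against Ets2KO, or 51.3%, 59.0% and 60.3%, where all genes gave 50.3%, 49.97% and 52.6%. In Ets1KO and Ets2KO against WT the members gave 69.2% and 75.6%, and all genes 70.8% and 70.3%. Among called members with several probe sets, all had 1 sign in 20 of 31 against WT, 20 of 30 against Ets1KO and 21 of 29 against Ets2KO. The directions of Slc2a1, Slc12a7, Slc25a10, Slc35a4, Slc35c2, Slc45a4 and Slc48a1 are shared by all their probe sets against WT, whereas Slc29a1, Slc22a5 and Slc8b1 have 1 probe set each. Other members with large differences from WT, among them Slc9a8, Slc35a2, Slc35b4 and Slc11a2, have probe sets of both signs.

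**Figure D5:**
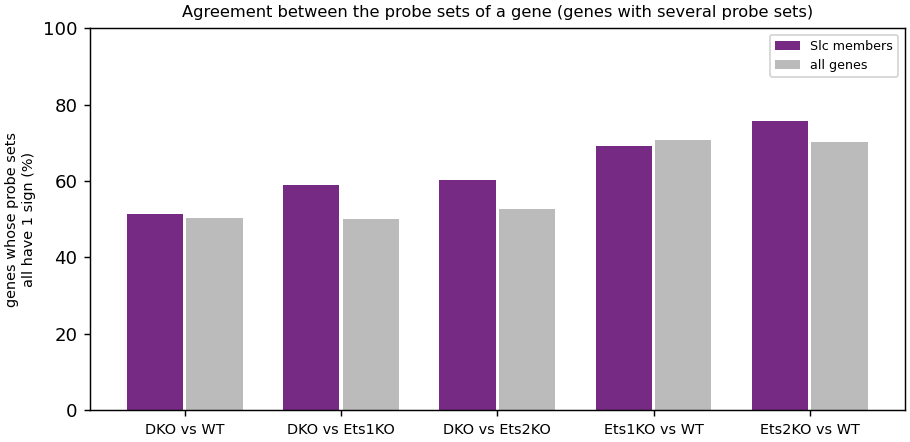
Share of genes with several probe sets in which all probe sets have the same sign, in percent, for solute carrier members (purple) and all genes (grey), by comparison. The bars of the 3 comparisons with the arrays labelled DKO lie between 49.97% and 60.3%, and those of the single knockouts between 69.2% and 75.6%.

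Promoter letters were counted in the members and in all tested genes. Of the 190 members 147 matched a promoter entry by symbol. CCGGAAG stood in the window of 30 members, 20.4%, and in 20.5% of the 8921 tested genes with a window, and ACGTG in 48 members, 32.7%, and in 29.7% of those genes. Both were searched on either strand, in windows of 300 bases, and the motifs cannot overlap each other. The 8 windows of Slc29a1 held no CCGGAAG, and no match says only that these letters are not in the window.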

How the data were processed

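Affymetrix arrays of 4 groups of cultured aortic endothelial cells were deposited as log2 expression values per probe set, made by the authors with RMA per the submitters' processing notes; the array type and chip annotation release were not given in the sources used here. Titles and genotypes gave the groups; sample descriptions of Ets1KO and Ets2KO say wild type and were not followed. Of 20523 probe sets, 18824 had 1 symbol, 549 several and 1150 none, and the probe set with the highest mean stood for each of 11015 genes. Each array's median over these genes was subtracted, and 4 group means were fitted to 11 arrays with lmFit and eBayes of limma 3.58.1 (R 4.3.3), leaving 7 residual degrees of freedom. Benjamini-Hochberg adjustment ran over 11015 genes in each comparison, with calls below 0.05. The fit was tested on simulated data. No filter was set on low values, so all 190 members were tested, dim ones included. By mean over the 11 arrays, Slc22a4 lay at percentile 0.29 of all genes, Slc15a2 at 0.50, Slc2a13 at 1.51 and Slc5a6 at 2.67. Slc16a4 lay at 8.05, Slc25a34 at 10.9 and Slc38a9 at 11.5. The differences of these members rest on dim probe sets.

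Named members were the 10 largest rises and 10 largest falls among called members whose groups do not overlap and whose probe sets share a sign, in comparisons with fewer than 10 calls all called members and the 5 largest differences each way, 15 chosen genes (11 measured), and members with probe sets beyond 1 in both directions. Others were named after their values were seen. The members, lists and tests were chosen with earlier results of these data known. Alternatives were 4 other scalings, other probe set rules, array weights, all 12 columns, a sex term, a replicate block and each array left out. Promoters came from RefSeq (GRCm38.p6). Figures were drawn with matplotlib 3.10.9.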

Additional observations from a re-analysis of the deposited data

Results flagged for a closer look

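For 21 named members the difference between the arrays labelled DKO and Ets1KO was not the same as that between Ets2KO and WT, by the interaction in limma. The difference of differences was -4.06 for Slc29a1, -3.13 for Slc9a8, -2.35 for Slc27a1, -2.28 for Slc25a10 and -1.99 for Slc48a1. It was -1.92 for Slc16a4, -1.88 for Slc35a4, -1.86 for Slc25a1, -1.81 for Slc12a7 and -1.70 for Slc8b1. These negative values held under all 5 scalings, except that of Slc16a4. A negative value need not be a fall in the arrays labelled DKO. For Slc16a4 those arrays (-2.50 and -1.66) overlapped with Ets1KO (-1.86, -3.09 and -2.13), and Ets2KO lay above WT. The value of Slc9a8 rests on its brighter probe set, and that of Slc25a1 was called in 2 of 11 fits that left out an array.

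Positive values were 3.34 for Slc2a1, 2.11 for Slc25a34, 1.82 for Slc41a1, 1.44 for Slc44a1, 1.41 for Slc30a4 and 1.33 for Slc35a3. Smaller ones were 1.05 for Slc25a40, 1.05 for Slc25a20, 1.02 for Slc25a26, 0.97 for Slc35c1 (the GDP-fucose carrier) and 0.87 for Slc4a4 (a sodium-bicarbonate cotransporter). Of these positive values that of Slc2a1 held under all 5 scalings, and the others did not. Slc35a3 has probe sets of opposite sign, -1.93 to 1.33. All these values rest on the same 2 arrays labelled DKO, and the Ets2KO arrays are all male-like. With sex class as a covariate, a term that rests on the WT arrays alone, 7 of the 21 were called, and with the replicate block 12.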

How the results depend on the processing

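Counts of called members were 0 in Ets1KO against WT, 1 in Ets2KO against WT, 63, 63 and 64 in the arrays labelled DKO against WT, Ets1KO and Ets2KO, and 34 for the interaction, and they moved by over 1.5 times as follows. In Ets1KO against WT array weights gave 1. In Ets2KO against WT the count was 0 as deposited, after quantile normalization, relative to the genes from the 75th percentile up, relative to all probe sets, among genes above the median, with only these 2 groups fitted, with a replicate block and with sex class as a covariate. There it was 2 with every probe set tested, 9 with all 12 columns and 28 with array weights. Against WT the arrays labelled DKO gave 31 among genes above the median, where 76 members were tested, and 26 with only these groups fitted. Against Ets1KO the first of these gave 29. Against Ets2KO the count was 99 as deposited, 32 among genes above the median, 37 with only these groups fitted and 5 with sex class as a covariate. For the interaction it was 69 as deposited, 53 with every probe set tested, 17 among genes above the median, 55 with all 12 columns, 20 with a replicate block and 14 with sex class. With sex class fitted, WT replicate 1 is the sole array that carries both the male-like class and the WT label. The sex term rests on that array, since no other group holds both classes. The cause of the other shifts was not tested.

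Leaving out each array gave 0 to 0 calls in Ets1KO and 0 to 2 in Ets2KO against WT, 36 to 65, 36 to 72 and 47 to 70 in the arrays labelled DKO against WT, Ets1KO and Ets2KO, and 20 to 38 for the interaction. Of the called members, 24 of 63, 23 of 63, 31 of 64 and 15 of 34 were called in all 11 such fits. Without 1 array labelled DKO the other is assumed to vary like the other groups.

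Among all called members, averaging probe sets turned the direction of 3 of 63 against WT, 4 of 63 against Ets1KO, 2 of 64 against Ets2KO and 2 of 34 for the interaction. These were Slc1a4, Slc35a3, Slc38a10 and Slc39a6. Among members named by the rule, Slc38a10 against WT was -0.13 as the mean of its probe sets. Slc19a2 against Ets1KO was -3.91 on its probe set of smallest p. Slc35a3 was -0.10 as the mean and -2.04 on that probe set against Ets2KO, and -0.051 and -1.93 for the interaction.

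Same-numbered samples of different groups had deviations from their group means that correlated by -0.32 to 0.10 over 15 pairs. Other pairs gave -0.22 to 0.32. The deviations of the 2 arrays labelled DKO mirror each other, so Ets1KO replicate 1 gave -0.32 with 1 and 0.32 with the other. The pairs are not independent, and these correlations cannot decide whether replicate numbers pair the samples. With the replicate block 46, 49, 50 and 20 of the calls were made in the arrays labelled DKO against WT, Ets1KO and Ets2KO and for the interaction. The interaction was not run with only its groups, since it uses all 4. With 2 arrays labelled DKO, 2 virus types and 1 probe set for 112 members, small differences are not resolved.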
